A study of Bos taurus with 11 samples.

Results

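The 10 genes described here encode the cell's main enzymes against superoxide and peroxide: the superoxide dismutases SOD1 and SOD2, catalase (CAT), the peroxiredoxins PRDX1, PRDX2, PRDX3, PRDX5 and PRDX6, thioredoxin (TXN) and thioredoxin reductase (TXNRD1). Their probes were taken by gene name from the annotation in the scanner files, and each probe was followed apart. They numbered 26 of the 43653 distinct probes on the array. All of them carry a RefSeq transcript identifier beside the probe except PRDX3 A_73_113041, whose name is taken from the array annotation alone.

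RNA came from peripheral blood mononuclear cells (PBMCs) of female cattle and was hybridised with Cy3 to Agilent bovine arrays, 1 sample per array. The 5 Ladakhi samples are labelled as high altitude. The 6 Sahiwal samples are labelled as low altitude and basal, and the design text places them in an arid or semi-arid region. Breed, home altitude and climate change together in this design, and no age, feeding or blood handling is given in the labels. The labels number the samples without stating that each is another animal. They are called animals here, and the p-values measure the spread between these samples.

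Superoxide dismutases turn superoxide into hydrogen peroxide, SOD1 with copper and zinc mainly in the cytosol and SOD2 with manganese in mitochondria. Catalase breaks down hydrogen peroxide in peroxisomes, and peroxiredoxins reduce it through a reactive cysteine. Most peroxiredoxins are then regenerated by thioredoxin, which thioredoxin reductase reduces with electrons from NADPH. In blood, PRDX2 is best known as one of the most abundant proteins of red cells, and SOD2 as a gene that inflammatory cytokines induce in monocytes and neutrophils.

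In brief, 1 of the 2 PRDX2 probes was 2.99-fold higher in Ladakhi PBMCs than in Sahiwal PBMCs, with no overlap between the breeds. TXN, SOD2 and 1 CAT probe were detected in all Sahiwal animals and in no Ladakhi animal, as were 2 of the 5 PRDX6 probes. The Sahiwal levels of these 2 PRDX6 probes were below what the Ladakhi arrays could detect. Of all 17866 tested probes 10041 were above background on no Ladakhi array, against 7 of the 24 tested member probes. The probes of TXNRD1, SOD1 and PRDX5 that were measured in both breeds did not pass the test, and neither did those of PRDX3 and PRDX6. PRDX1 was above background in 3 of the 5 Ladakhi animals.

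The arrays of the breeds differed in brightness, which sets what can be read from each probe. The Ladakhi arrays had 5373 ± 1117 spots well above background (SD, n = 5), against 18848 ± 1352 on the Sahiwal arrays (SD, n = 6). The file headers name an Agilent scanner for the Ladakhi arrays and an Axon GenePix scanner for the Sahiwal arrays, with different versions of the extraction software. No slide held both breeds, so breed, scanner, software and slide cannot be told apart in any difference below. Levels are log2 of the processed Cy3 signal, set relative to the 75th percentile, within the array, of the 2705 probes that every one of the 11 arrays detected. On this scale the dimmest spot well above background lay between -4.26 and -3.03 on the Ladakhi arrays, and between -8.91 and -7.49 on the Sahiwal arrays. A Ladakhi level below that range is a background reading and not a measurement, and levels of different probes are not on 1 scale.

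A probe was tested where at least 4 arrays of either breed showed it above background, and it is called measured where this held in each breed. Of the 26 probes, 24 were tested and 11, of 6 genes, were measured in both breeds. A further 6 were above background on 1 to 3 Ladakhi arrays. The remaining 9 were so on no Ladakhi array, 7 of which were tested. On the Sahiwal arrays 23 of the 26 probes were above background in all 6 animals. Among all tested probes 22.7% were measured in both breeds, against 45.8% of the members' tested probes.

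Of the 11 measured probes 1 was higher in Ladakhi, 0 were lower and 10 did not pass the test at an adjusted p of 0.05. Over all 4048 measured probes 32.7% passed (18.2% higher and 14.5% lower), which is above the 9.09% of the members. The members' median difference was -0.14 (log2), against -0.02 over all measured probes. The breeds did not overlap for 1 of the 11, where the share over all measured probes was 21.6%. The 10 that did not pass had differences between -0.74 and 0.25 and adjusted p from 0.129 to 0.976 (limma, Benjamini-Hochberg over 17866 probes). Differences are Ladakhi minus Sahiwal throughout.

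**Figure D1:**
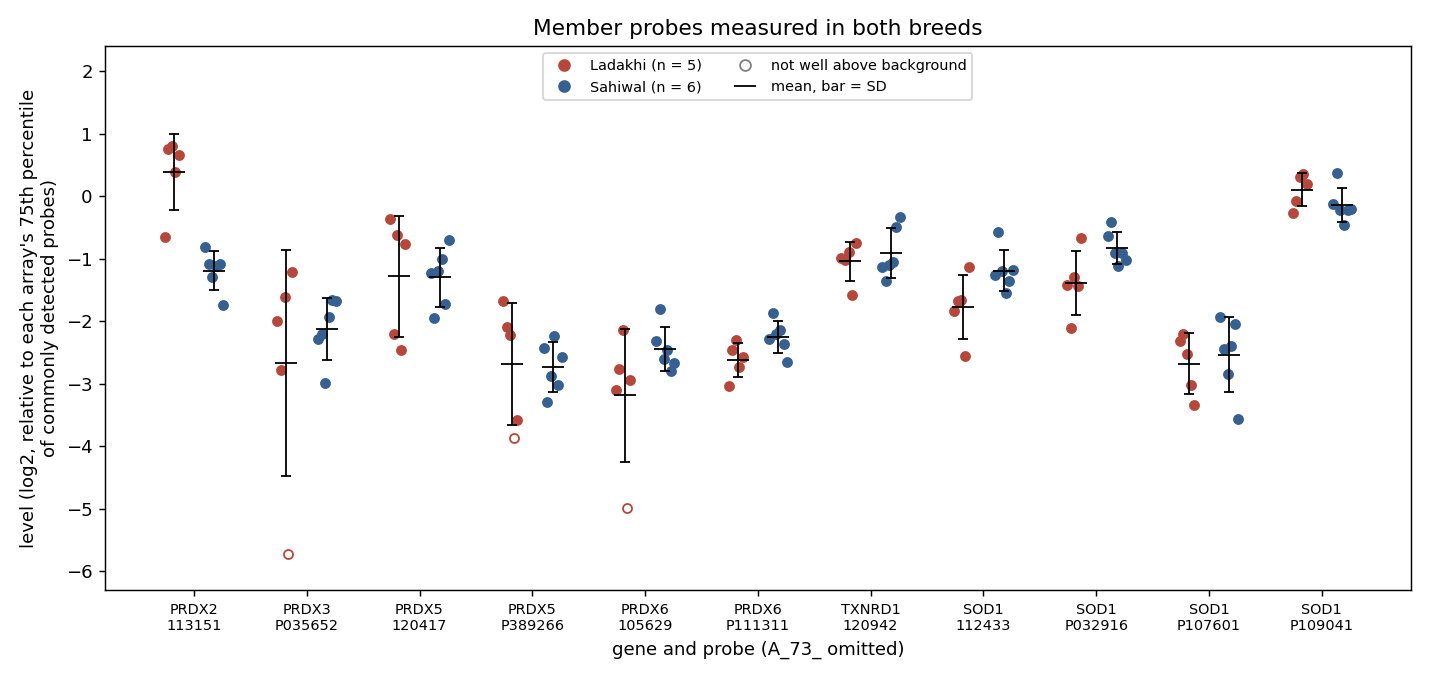
Levels (log2, relative to each array's 75th percentile of commonly detected probes) of the 11 member probes measured in both breeds, with Ladakhi animals left of Sahiwal animals. Each point is 1 animal, open points were not well above background, and bars are the mean and SD. PRDX2 probe A_73_113151 is the one whose breeds do not overlap, with Ladakhi points between -0.66 and 0.81 above Sahiwal points between -1.75 and -0.82.

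The probes are 60 bases long, with a GC content between 35% and 55% (median 41.7%, against 45% over all probes), and 6 of the 26 span more than 60 genome positions, as probes across a splice junction do. Those below are printed because the results turn on how probes of 1 gene differ. They are given 5′ to 3′ as the array design has them, on the build HGSC Btau 3.1 that the file headers name. For PRDX1, the gene's only probe (chr3:107472210-107472537, plus strand) covers 328 positions of the genome. For PRDX2, the probe that did not pass the test (chr7:11002108-11002167, plus strand) carries in capitals the stop codon of its only forward reading frame that holds one. Its other 2 frames have no stop codon. The probe that passed lies 77 bases further along the same strand (chr7:11002245-11002304). The PRDX6 probe (chr16:51951854-51951913, plus strand) lies at least 1751 bases from the other probes of its gene. The SOD1 probe (chr1:2914467-2915353, minus strand) covers 887 positions, and the SOD2 probe (chr9:99818858-99818917, minus strand) is the dimmer of the pair for that gene. The CAT probes (chr15:64711606-64711665 and chr15:64711624-64711683, plus strand) share the 42 letters in capitals.
PRDX1 A_73_P047596: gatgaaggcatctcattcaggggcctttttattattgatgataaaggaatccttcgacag
PRDX2 A_73_P283131: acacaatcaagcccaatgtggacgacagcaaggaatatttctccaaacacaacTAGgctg
PRDX6 A_73_P284036: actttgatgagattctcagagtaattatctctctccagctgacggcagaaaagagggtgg
SOD1 A_73_P107601: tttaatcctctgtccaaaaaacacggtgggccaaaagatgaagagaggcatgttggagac
SOD2 A_73_P100016: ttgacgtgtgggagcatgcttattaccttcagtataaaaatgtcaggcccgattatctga
CAT A_73_P269456: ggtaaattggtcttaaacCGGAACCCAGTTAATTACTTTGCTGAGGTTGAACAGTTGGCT
CAT A_73_P253121: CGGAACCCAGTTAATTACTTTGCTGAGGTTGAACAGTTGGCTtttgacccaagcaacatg

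SOD1, the cytosolic dismutase, had 4 probes, all measured in both breeds, and none passed the test. Probe A_73_P109041 (chr1:2912661-2912720) had levels of -0.27, -0.07, 0.30, 0.36 and 0.19 in the Ladakhi animals, against a lowest of -0.46, a median of -0.21 and a highest of 0.36 in the Sahiwal animals. The breeds lay over each other, and the difference was 0.25 (SE 0.25, 95% interval -0.30 to 0.79, adjusted p = 0.455).

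Probe A_73_112433 (chr1:2912586-2912645), 15 bases away, had -1.84, -1.67, -1.66, -2.56 and -1.13 in Ladakhi, against -1.55 at the lowest, -1.23 at the median and -0.58 at the highest in Sahiwal. Its difference was -0.58 (SE 0.30, 95% interval -1.22 to 0.05, adjusted p = 0.129). Probe A_73_P032916 (chr1:2912339-2912398) had -1.43, -2.10, -1.30, -1.43 and -0.68 in Ladakhi, against -1.11, -0.91 and -0.42 (lowest, median and highest) in Sahiwal, a difference of -0.55 (SE 0.29, adjusted p = 0.135). For both, 4 of the 5 Ladakhi animals lay below every Sahiwal animal. Without Ladakhi animal 5, the difference of A_73_P032916 was -0.73 and passed at an adjusted p of 0.0497. The wide-spanning probe A_73_P107601 differed by -0.14 (SE 0.34, adjusted p = 0.767).

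Of the 6 pairs of SOD1 probes 2 differed within arrays between the breeds without overlap, both of them pairs with A_73_P109041. The measured pair of PRDX5 probes and that of PRDX6 probes overlapped. Pairs of probes of other genes were not counted, so whether such a share is usual on these arrays is not known. Within an array, A_73_112433 minus A_73_P109041 was -1.87 ± 0.63 in Ladakhi (SD, n = 5, between -2.91 and -1.32), against -1.04 ± 0.09 in Sahiwal (SD, n = 6, between -1.14 and -0.94). A_73_P032916 minus A_73_P109041 was -1.49 ± 0.47 in Ladakhi, against -0.69 ± 0.10 in Sahiwal. Both differences (-0.83 and -0.80) are free of the scale chosen. The other 4 pairs overlapped, among them A_73_112433 minus A_73_P032916, at -0.39 ± 0.55 in Ladakhi and -0.36 ± 0.18 in Sahiwal. The brightness of the arrays differed between the breeds as given above, and its part in these ratios was not tested.

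SOD2, the mitochondrial dismutase, had 2 probes, both above background in all 6 Sahiwal animals and in 0 of 5 Ladakhi animals. Probe A_73_P047296 (chr9:99818260-99818319) had background readings between -5.59 and -5.18 in Ladakhi, against -3.81, -1.51, -1.51, -1.13, -4.40 and -0.92 in Sahiwal animals 1 to 6. The Sahiwal animals themselves were split: animals 1 and 5 were far below the other 4 and under the mean Ladakhi detection level of -3.61. As a bound, SOD2 was at least 2.63-fold lower in Ladakhi by this probe. The bound sets the Sahiwal mean against the lowest level that each Ladakhi array could show as above background. The fit gave adjusted p = 0.00101, with a difference of -3.16 (SE 0.58) that rests on background readings in Ladakhi.

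Probe A_73_P100016 had readings between -5.53 and -4.16 in Ladakhi, against -4.41, -2.49, -2.17, -2.31, -5.56 and -1.88 in Sahiwal animals 1 to 6. Again animals 1 and 5 were the low ones, and they reached into the range of the Ladakhi readings. The bound was at least 1.39-fold lower in Ladakhi (fitted adjusted p = 0.0289). That call was kept in 11 of 24 alternative settings, in which adjusted p reached 0.460. The smallest difference among them was -0.38, less than the bound (0.47 in log2). For A_73_P047296 the call was kept in all 24, with a highest adjusted p of 0.0318 where dim signals were raised to the detection level.

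The split among Sahiwal animals was large for this data set. The SDs over the 6 animals were 1.49 for each SOD2 probe, at the 98.9th percentile of the 15098 probes above background on all 6 Sahiwal arrays, whose median SD was 0.46. The other member probes above background on all 6 had SDs between 0.15 and 0.60. Both SOD2 probes varied together (r = 0.99 over the 6 animals, which share their arrays), so the low values in animals 1 and 5 came from 2 probes that lie 538 bases apart. Animals 1 and 5 were on different slides.

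Some cytokine and myeloid genes, chosen after their values were seen, followed the same animals and others did not. IL1RN, the secreted antagonist of interleukin 1, had by probe A_73_101356 levels of -0.69, 1.72, 1.90, 0.45, -1.71 and 0.53 in Sahiwal animals 1 to 6. IL1B, an inflammatory cytokine, had 0.14, 2.26, 2.99, 1.1, -3.66 and 1.69, with 1 saturated value. In both, animals 5 and 1 were the lowest, as for SOD2. CSF3R, the receptor for the neutrophil growth factor G-CSF, had -4.65, -4.23, -3.73, 0.15, -3.96 and 0.59, so that it was high in animals 4 and 6 and low in animals 2 and 3, where SOD2 was high. All 4 probes of NFKBIA, the inhibitor of NF-kappa-B that NF-kappa-B itself induces, were lowest in animals 5 and 4, with animal 1 at 1.59 by probe A_73_P038251. S100A8, S100A9 and LYZ were lowest in animals 1 and 2. Both CD14 probes that were above background on all 6 Sahiwal arrays were lowest in animals 1 and 5, as SOD2 was.

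Some myeloid markers were lower in Ladakhi, as SOD2 was. Levels were taken out of log2 and summed over the tested probes of a list, Ladakhi background readings included. The sum of 8 tested neutrophil probes ran from 2.45 to 6.04 in Ladakhi, against 5.35 to 22.5 in Sahiwal. Of 4 measured probes 0 were higher and 2 lower, and these 4 read 2 genes alone, S100A8 and S100A12. CAMP was above background on no array, and S100A12 A_73_115208 was saturated on 2 arrays. CXCR1 and CXCR2 were above background on too few arrays to be tested. MMP9 A_73_119412 and LTF A_73_116655, on 0 Ladakhi arrays, had fitted differences of 1.16 and 0.98 that did not pass. The sum of 12 tested monocyte probes ran from 1.63 to 3.39 in Ladakhi, against 3.13 to 9.70 in Sahiwal, with 0 of 4 measured probes higher and 2 lower. The summed ranges of the breeds overlapped for both lists. Lymphocyte markers went both ways. Of 7 measured T cell probes 2 were higher and 0 lower, and of 3 measured B cell probes 2 were higher and 0 lower. Over all measured probes 18.2% were higher and 14.5% lower. Among probes above background on fewer Ladakhi arrays, CD3E A_73_104727 (-2.45, adjusted p = 0.0242), CD3G A_73_111056 (-1.83, adjusted p = 0.013) and MS4A1 A_73_105053 (-1.60, adjusted p = 0.0171) were lower, and CD3E A_73_P109026 (2.75, adjusted p = 0.000412) was higher. The part of cell make-up in the SOD2 result was not tested, and in bulk RNA fewer cells of a type and less RNA per cell cannot be told apart.

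**Figure D2:**
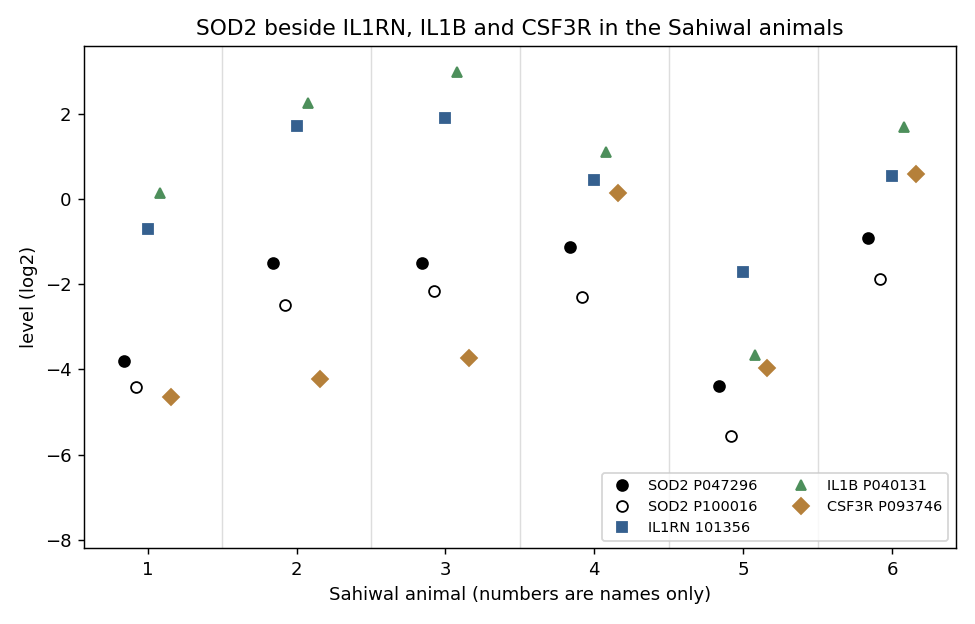
Levels (log2) of both SOD2 probes and of IL1RN, IL1B and CSF3R in the 6 Sahiwal animals, 1 point per probe and animal. SOD2, IL1RN and IL1B are lowest in animals 5 and 1, whereas CSF3R is high only in animals 4 and 6 (0.15 and 0.59).

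CAT, the peroxisomal catalase, was detected in Sahiwal by its brighter probes and hardly in Ladakhi. Probe A_73_101665 (chr15:64725105-64725164) had readings of -5.59, -4.61, -6.57, -5.67 and -4.30 in Ladakhi, none above background. The Sahiwal levels ran from -3.55 over a median of -3.37 to -2.87, all above background. The bound was at least 1.24-fold lower in Ladakhi, with a fitted adjusted p of 0.00104. Of the 6 Sahiwal levels 5 lay inside the range of the Ladakhi detection levels. The call was lost where dim signals were raised (adjusted p = 0.348) and with the normexp background correction (adjusted p = 0.146).

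Probe A_73_P050911, which spans 665 positions at chr15:64723959-64724623, was above background in Ladakhi animal 3 alone, at -3.47. In the Sahiwal animals it lay between -4.80 and -4.43, and the fit gave 0.23 (adjusted p = 0.609). These Sahiwal levels are below the Ladakhi detection range, so missing detection in Ladakhi does not show a lower level by this probe. The overlapping probes printed above were near background in both breeds. A_73_P269456 was detected in 1 Sahiwal animal and was not tested. A_73_P253121, detected in 4 Sahiwal animals, had a fitted difference of 1.67 (adjusted p = 0.0151), but its Ladakhi values were background readings that lie on average higher on this scale than the Sahiwal levels, so it has no direction. With a bound from A_73_101665 alone, CAT as a whole has no settled direction.

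PRDX2, a cytosolic peroxiredoxin, held the one measured member probe that passed the test. Probe A_73_113151 had levels of -0.66, 0.76, 0.81, 0.39 and 0.65 in the Ladakhi animals, against -0.82, -1.08, -1.29, -1.11, -1.09 and -1.75 in the Sahiwal animals. Every Ladakhi animal was above every Sahiwal animal, with Ladakhi animal 1 (-0.66) close to the highest Sahiwal value (-0.82). The means were 0.39 ± 0.61 in Ladakhi (SD, n = 5) and -1.19 ± 0.31 in Sahiwal (SD, n = 6). By this probe PRDX2 was higher by 1.58 in Ladakhi (SE 0.31, 95% interval 0.91 to 2.25, adjusted p = 0.0016 by limma). The processed signals ran the other way before scaling, between 647 and 3205 in Ladakhi, against 2630 to 8601 in Sahiwal, so the direction is relative to the other probes of each array.

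Set against other members within the same array, where no scaling enters, the probe gave the following values. PRDX2 A_73_113151 minus SOD1 A_73_P109041 was 0.29 ± 0.47 in Ladakhi, against -1.04 ± 0.38 in Sahiwal. PRDX2 minus PRDX6 A_73_P111311 was 3.01 ± 0.36 in Ladakhi, against 1.06 ± 0.26 in Sahiwal. These values restate the difference above minus that of the other probe, and their sign follows from having taken the probe that passed, so they are a description. Over the 10 other measured member probes the within-array difference was between 1.33 and 2.32. The breeds did not overlap in 6 of these 10 pairs, both pairs given above among them. They overlapped in the pairs with PRDX3 A_73_P035652, both measured PRDX5 probes and SOD1 A_73_P107601.

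The second PRDX2 probe, A_73_P283131, which ends just past a stop codon, split the Ladakhi animals. It had -1.43, -1.55 and -1.65 in animals 1, 4 and 5, and background readings of -3.69 and -5.02 in animals 2 and 3. The Sahiwal animals had a lowest level of -3.73, a median of -2.74 and a highest of -2.62. Animals 2 and 3, the 2 highest by the other probe, gave no signal above background here. The fitted difference was 0.24 (SE 0.58, 95% interval -0.99 to 1.48, adjusted p = 0.758). In the Sahiwal animals both PRDX2 probes varied together (r = 0.93, n = 6, on shared arrays), and why they part in the Ladakhi animals was not tested. With 1 of 2 probes higher, the gene as a whole has no settled direction.

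Because PRDX2 is abundant in red cells, the red cell markers are given beside it. The summed unlogged level of 6 tested red cell probes was between 0.578 and 3.36 in Ladakhi, against 0.202 to 3.72 in Sahiwal. Of these probes 3 were above background on no Ladakhi array. Neither of the 2 measured ones passed (HBB -0.61, adjusted p = 0.505, and HBG A_73_P441566 0.27, adjusted p = 0.795), where 32.7% of all measured probes did. CA1, EPB42, RHAG and SLC4A1 were above background on no array. ALAS2, the first enzyme of haem synthesis in red cell precursors, was above background in 2 Ladakhi and 5 Sahiwal animals, with a fitted difference of 2.61 (adjusted p = 0.00722). HBG A_73_P417511, above background in 0 Ladakhi and 5 Sahiwal animals, had a fitted difference of 1.59 (adjusted p = 0.0288). Both fits rest wholly or mostly on Ladakhi background readings, which lie high on this scale. The part of red cells in the PRDX2 result was not tested.

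The 3 genes whose deviations from the breed mean were most like those of PRDX2 A_73_113151, of 3910 probes over the 11 arrays, were PITHD1 (r = 0.91), NOMO2 (r = 0.90) and KLC2 (r = 0.89). These points share their arrays and the low Ladakhi animal 1.

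PRDX1, the close relative of PRDX2, was read by a single probe, A_73_P047596. It had -2.23, -2.65 and -2.52 in Ladakhi animals 1, 3 and 5 and background readings in animals 2 and 4, against -3.79, -3.37 and -2.94 (lowest, median and highest) in Sahiwal. The Sahiwal levels lay within or just above the range of Ladakhi detection levels, so the detected values alone are not set against them. The fit over all animals gave -0.32 (SE 0.59, 95% interval -1.59 to 0.94, adjusted p = 0.682), and the difference was 0.09 without Ladakhi animal 2 and 0.19 without animal 4. The level in the other 2 Ladakhi animals is not known beyond being below detection.

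PRDX3, the mitochondrial peroxiredoxin, had 2 probes that the files place on different chromosomes. A_73_P035652 (chr26:39793704-39793763) had -2.0, -2.77, -1.62 and -1.22 in Ladakhi animals 1, 2, 3 and 5 and no signal above background in animal 4, against -2.99, -2.07 and -1.66 (lowest, median and highest) in Sahiwal. The difference was -0.54 (SE 0.64, adjusted p = 0.517), and 0.22 without Ladakhi animal 4 (adjusted p = 0.656). A_73_113041 (chr8:23090060-23090119) was above background in Ladakhi animals 3 and 5 alone, at -3.95 and -3.42, against -3.62 to -2.44 in Sahiwal. It passed with -1.12 (SE 0.37, adjusted p = 0.0245), but kept the call in 18 of 24 alternatives, and was -0.24 (adjusted p = 0.472) where dim signals were raised. Without Ladakhi animal 1 it was -0.82 (adjusted p = 0.0652) and without Sahiwal animal 5 it was -0.97 (adjusted p = 0.052).

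PRDX5, which is found in mitochondria, peroxisomes and the cytosol, did not pass the test on any of its 3 probes. Probe A_73_120417 (chr29:44400640-44400699) had -0.37, -2.21, -0.63, -2.45 and -0.76 in Ladakhi, against -1.96, -1.21 and -0.70 (lowest, median and highest) in Sahiwal. Ladakhi animals 2 and 4 lay below all Sahiwal animals, and animals 1 and 3 above them. The difference was 0.02 (SE 0.41, 95% interval -0.87 to 0.90, adjusted p = 0.976), an interval that leaves room for a change of nearly 1 log2 unit either way. A_73_P389266 differed by 0.05 (SE 0.40, adjusted p = 0.935). A_73_P452601, on 2 Ladakhi arrays, gave 0.30 (adjusted p = 0.501).

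PRDX6, the peroxiredoxin with a single active cysteine and a second activity as a phospholipase, had 5 probes with different outcomes. A_73_P111311 (chr16:51954255-51954314) had -3.03, -2.46, -2.31, -2.73 and -2.58 in Ladakhi, against -2.65, -2.24 and -1.86 (lowest, median and highest) in Sahiwal, a difference of -0.37 (SE 0.25, 95% interval -0.92 to 0.17, adjusted p = 0.254). A_73_105629, which shares 54 letters with it, gave -0.74 (SE 0.42, adjusted p = 0.173). These are 1 stretch of the transcript read by overlapping probes.

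The PRDX6 probe printed above, A_73_P284036, split the Ladakhi animals. It had -2.21, -2.02 and -2.23 in Ladakhi animals 2, 3 and 5 and background readings in animals 1 and 4, against -4.74, -4.38 and -4.04 (lowest, median and highest) in Sahiwal. The Sahiwal levels lay at or below the detection levels of most Ladakhi arrays, so that a Ladakhi value had to be higher than them to be detected. The fit over all animals gave 1.17 (SE 0.56, 95% interval -0.04 to 2.37, adjusted p = 0.110). Without Ladakhi animal 4 it was 1.79 and passed (adjusted p = 0.0037). The last 2 PRDX6 probes, A_73_P204627 and A_73_P043306, were above background in 0 Ladakhi and all Sahiwal animals, at Sahiwal levels below the Ladakhi detection range, so that no bound can be given.

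TXN, the thioredoxin that recycles the peroxiredoxins, was read by 1 probe, A_73_101578 (chr8:104842259-104842318, minus strand). The Ladakhi readings were -5.59, -4.47, -6.57, -4.06 and -5.91, none above background, against -2.0, -2.06, -2.83, -2.47, -2.49 and -2.41 in Sahiwal, all above it. Every Sahiwal level was higher than the highest Ladakhi detection level (-3.03). The bound was at least 2.35-fold lower in Ladakhi. The fit gave adjusted p = 0.00021, and the difference of -2.94 (SE 0.41) rests on background readings in Ladakhi. The call was kept in 24 of 24 alternatives, with differences between -3.59 and -0.72. The smallest of these is less than the bound (1.23 in log2), so the bound holds for the processing as reported. The processed signals were 19.3 to 47.3 in Ladakhi, against 905 to 3789 in Sahiwal. With 1 probe for the gene, no second sequence bears on it.

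TXNRD1, the cytosolic thioredoxin reductase, was measured on all 11 arrays by probe A_73_120942 (chr5:72988083-72988142). Its levels were -0.99, -1.02, -0.89, -1.58 and -0.75 in Ladakhi, against -1.36, -1.08 and -0.33 (lowest, median and highest) in Sahiwal. The breeds overlapped, with a difference of -0.13 (SE 0.28, 95% interval -0.73 to 0.47, adjusted p = 0.730). The second probe, A_73_P091051, whose ends lie 4015 positions apart, was above background in 0 Ladakhi animals and 1 Sahiwal animal and was not tested.

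For the 7 tested probes above background on no Ladakhi array, 4 passed as lower with a bound above 1-fold: TXN, both SOD2 probes and CAT A_73_101665. Over the 10041 probes of that kind 15% passed as lower, 5.12% had a bound above 1-fold, and 4.89% had both. The members were not matched to those probes for brightness in Sahiwal, which decides whether a bound can be reached. Of the 6 on 1 to 3 Ladakhi arrays 1 passed, against 38.8% of such probes. Over all tested probes 41.8% passed, and of the 24 members' probes 5 were lower and 2 higher, which were PRDX2 and the CAT probe without a direction.

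**Figure D3:**
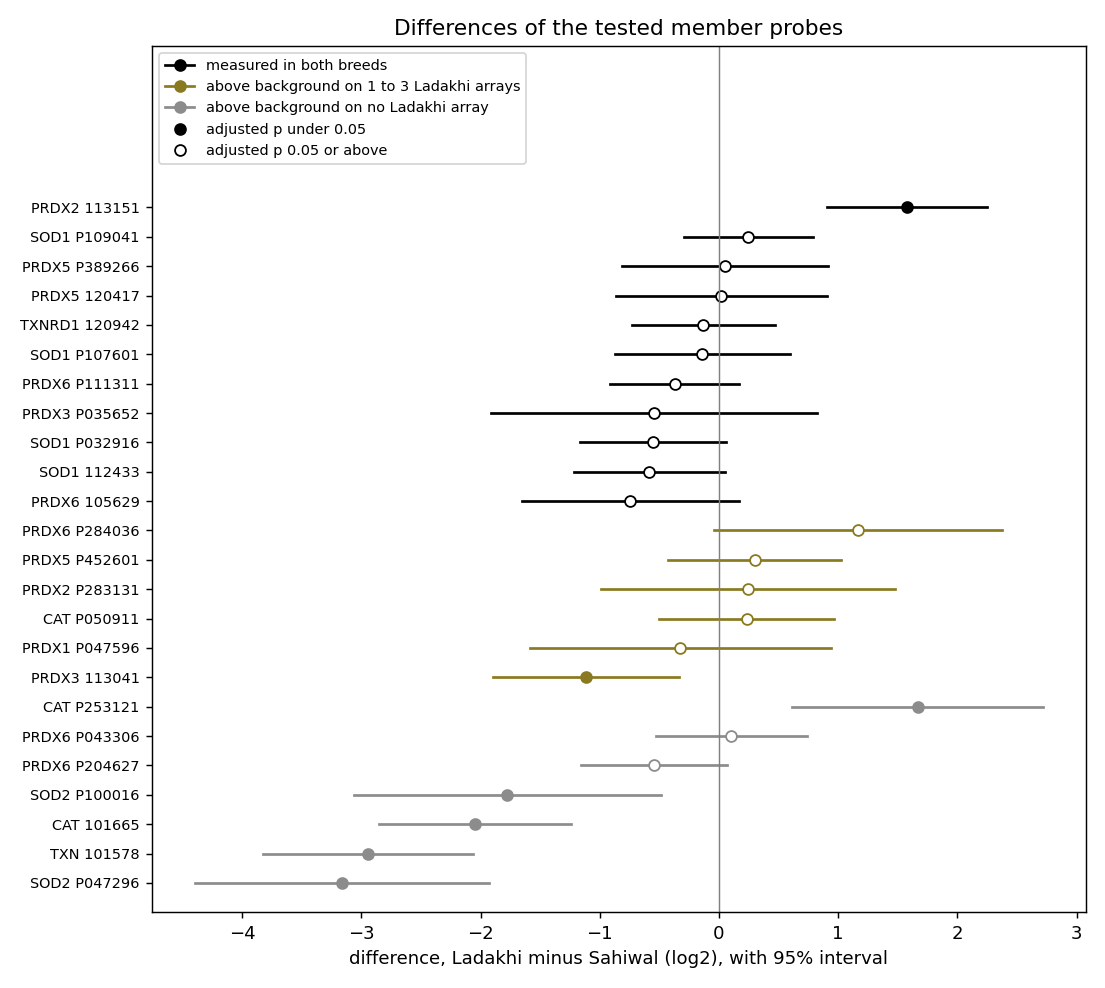
Differences (log2, Ladakhi minus Sahiwal) of the 24 tested member probes with 95% intervals, from the limma fit, in 3 blocks by how many Ladakhi arrays showed the probe above background. Filled points passed at an adjusted p of 0.05. In the grey block the Ladakhi values are background readings. Only bounds can be read there, such as at least 2.35-fold lower for TXN with the processing as reported.

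**Figure D4:**
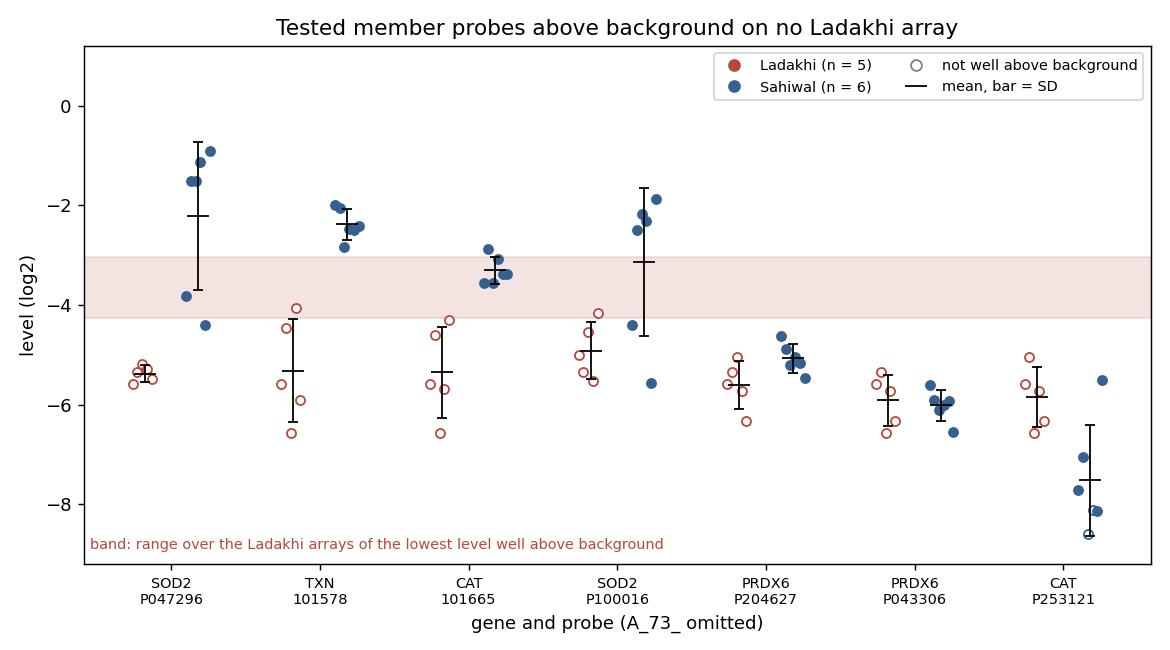
Levels (log2) of the 7 tested member probes above background on no Ladakhi array, Ladakhi left of Sahiwal, with the band from -4.26 to -3.03 showing the lowest level well above background on the Ladakhi arrays. All Sahiwal TXN points are above the band, while the SOD2 points of Sahiwal animals 1 and 5 are inside or below it.

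The wider thioredoxin system was followed in 37 other genes, chosen with earlier results of these data known. Of their 74 probes 56 were tested and 16, of 13 genes, were measured in both breeds. Of these 2 were higher and 3 lower, near the shares over all measured probes (18.2% and 14.5%). The median difference was -0.01, against -0.02 over all measured probes. Both higher ones read CCS, the chaperone that loads copper into SOD1. A_73_P462346 was -2.45 ± 0.39 in Ladakhi, against -3.45 ± 0.38 in Sahiwal (SD, n = 5 and 6), a difference of 1.0 (SE 0.29, adjusted p = 0.0126). A_73_111133 was 0.78 ± 0.35 in Ladakhi, against -0.02 ± 0.31 in Sahiwal, a difference of 0.80 (SE 0.27, adjusted p = 0.0281), and kept the call in 17 of 25 alternatives. Beside it, none of the 4 SOD1 probes passed.

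The 3 lower probes read genes with different roles, and none overlapped between the breeds. TXNIP, which binds and inhibits thioredoxin, was -2.19 ± 0.13 in Ladakhi by A_73_P252836, against -0.84 ± 1.01 in Sahiwal, a difference of -1.36 (SE 0.42, adjusted p = 0.0198). Its other measured probe, A_73_P030316, gave -0.05 (adjusted p = 0.925), so the gene has no single direction. GLRX3, a cytosolic monothiol glutaredoxin, was -2.60 ± 0.64 in Ladakhi by A_73_117294, against -1.53 ± 0.26 in Sahiwal, a difference of -1.07 (SE 0.31, adjusted p = 0.0145). The other GLRX3 probe, A_73_P162837, above background on 1 Ladakhi array, gave -0.12 (adjusted p = 0.831). TXNRD2, the mitochondrial counterpart of TXNRD1, was -3.41 ± 0.67 in Ladakhi by A_73_120300, against -2.44 ± 0.17 in Sahiwal. The difference was -0.97 (SE 0.31, adjusted p = 0.0232), and 20 of 25 alternatives kept this call. The other TXNRD2 probe, A_73_P046136, above background on 0 Ladakhi arrays, had a fitted difference of -0.40 (adjusted p = 0.353). TXN2, the mitochondrial thioredoxin, differed by 0.27 (adjusted p = 0.584).

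The phagocyte NADPH oxidase makes superoxide. Of 7 measured probes of 5 of its genes 0 were higher and 2 lower (18.2% and 14.5% over all measured probes), with a median difference of -0.33. Both lower ones read Rac proteins, the small GTPases that switch the oxidase on. RAC2, the form of blood cells, was -2.06 ± 1.98 in Ladakhi, against -0.00 ± 0.12 in Sahiwal, a difference of -2.05 (SE 0.67, adjusted p = 0.024), with the breeds apart by a narrow gap from -0.27 (highest Ladakhi) to -0.22 (lowest Sahiwal). Without Ladakhi animal 3 it was -1.21 (adjusted p = 0.00843), the call was kept in 23 of 25 alternatives, and the gene's other probe, above background on 1 Ladakhi array, gave 0.39 (adjusted p = 0.336). RAC1 A_73_P037201 passed with -1.71 (adjusted p = 0.0366), but without Ladakhi animal 2 it was -1.0 (adjusted p = 0.0526), and the gene's other probe gave -0.19. The probes of the oxidase subunits CYBA, NCF1 and NCF4 that were measured did not pass. The subunit CYBB was lower by A_73_P100936 (-1.81, adjusted p = 0.00255), above background on 1 Ladakhi array. Where dim signals were raised this was -0.52. Its other probe, on 2 Ladakhi arrays, gave -0.97 (adjusted p = 0.127). NCF4 A_73_P480973, on 0 Ladakhi arrays, had a fitted difference of -1.02 (adjusted p = 0.0247) and no bound. Of all probes on 1 to 3 Ladakhi arrays 38.8% passed.

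**Figure D5:**
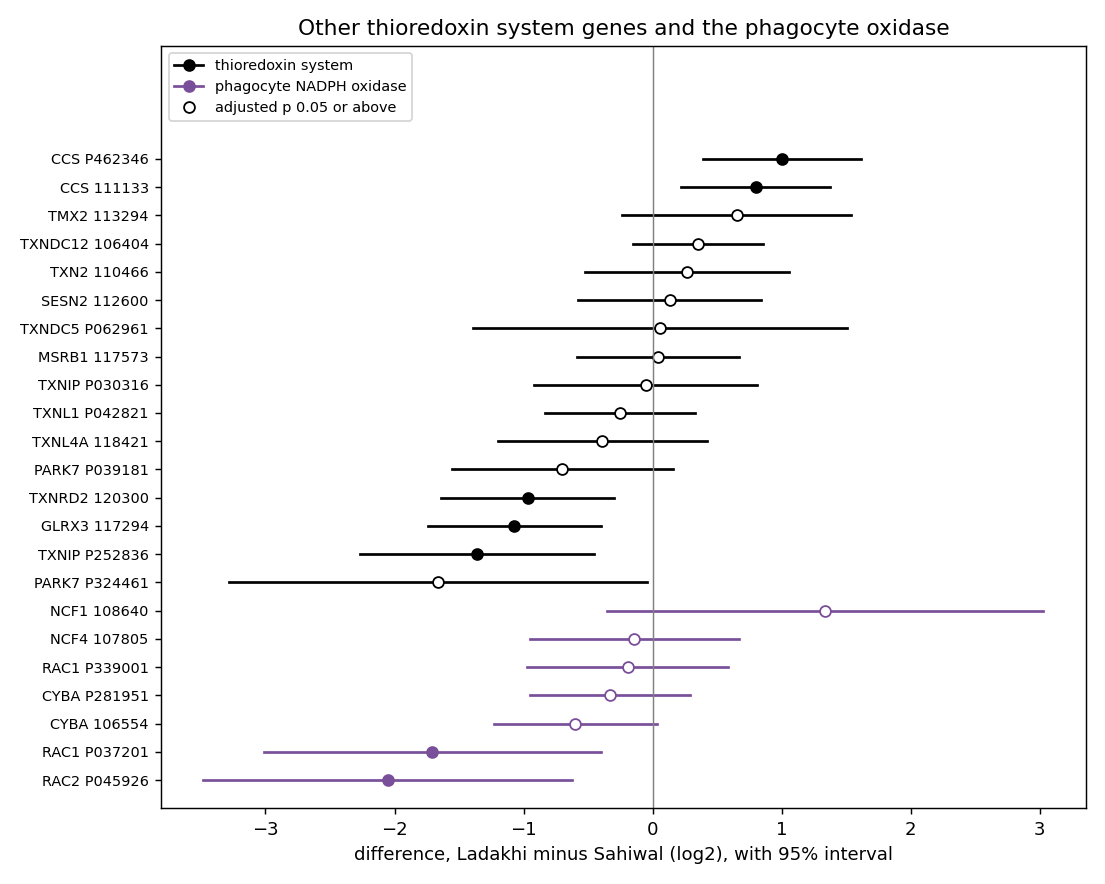
Differences (log2, Ladakhi minus Sahiwal) with 95% intervals of the measured probes of the thioredoxin system list (16 probes, black) and of the phagocyte NADPH oxidase list (7 probes, purple). Filled points passed at an adjusted p of 0.05: CCS on both its probes to the right, and TXNIP, GLRX3, TXNRD2, RAC1 and RAC2 to the left.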

How the data were processed

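The authors deposited scanner output for each array, in which, per the file headers, the processed signal is a Cy3 intensity after background subtraction by Feature Extraction. A deposited table of log2 values was used as an alternative; its 11 columns each tracked an array of their own breed, but not the one in the column's name (r at least 0.9998), so animal numbers are those of the scanner files. Its log base and its centring on each probe's median were checked against the scanner values, and the medians of its columns lay between 1.60 and 2.32 in Ladakhi, against -0.73 to 0.00 in Sahiwal. Control spots were left out and 294 outlier spots set missing. Log2 signals were centred on the 75th percentile of the 2705 probes detected on all arrays, since the percentile over all probes lies at background in Ladakhi (12.3% of spots detected, against 43.0% in Sahiwal). R 4.3.3 and limma 3.58.1 (lmFit, eBayes) tested 17866 probes over 5 and 6 arrays, with Benjamini-Hochberg adjustment. The number of arrays limits the precision. Saturated spots (0 in Ladakhi, 71 to 228 in Sahiwal, 0 on member probes) were kept. A gene table of assembly ARS-UCD 2.0 held the accessions of 26740 probes and served for names alone. Named from the lists were all genes with a measured probe that passed, up to 8 per list. A gene of the oxidase list is not reported here. Members, lists and tests were chosen with earlier results of these data known. The procedure was tested on simulated data, with 50 probes changed at each size. At changes of 0.5, 1, 2 and 4 log2 units it recovered 0, 3, 27 and 47 of the 50. It made 2 false calls among 17666 unchanged probes. Far fewer probes changed there than the 41.8% that passed in the real data, so these shares do not carry over directly. A probe that did not pass can still differ. Replicate numbers did not pair the breeds (r from -0.07 to 0.05 between same-numbered samples).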

Additional observations from a re-analysis of the deposited data

Results flagged for a closer look

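Of 35 groups of member levels tested for a single sample far from the rest, 3 had one, and chance gives about 1 in 20. Ladakhi animal 1 had -0.66 on PRDX2 A_73_113151, where the other 4 Ladakhi animals lay between 0.39 and 0.81; without it the difference was 1.84 (adjusted p = 0.000645). Sahiwal animal 6 had -3.73 on PRDX2 A_73_P283131, with the other 5 between -2.97 and -2.62. Sahiwal animal 2 had -0.58 on SOD1 A_73_112433, with the other 5 between -1.55 and -1.19.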

How the results depend on the processing

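PRDX2 A_73_113151 passed in all 25 alternatives (1.41 to 1.84) and TXN and SOD2 A_73_P047296 in all 24 (adjusted p up to 0.0181 and 0.0318). Among the 11 measured member probes, those called higher numbered 1, and 3 with normexp background correction. The median difference of all measured probes was 0.27 with normexp, 0.17 with quantile normalization and 0.11 with cyclic loess, against -0.02 as reported. Leaving out 1 animal gave 0 to 1 of the 11 measured member probes lower. Over all tested probes 4380 were higher and 3096 lower. With quantile normalization these were 1510 and 6433, with cyclic loess 1812 and 1561, with normexp 12365 and 1119, with measured probes alone 760 and 567, with dim signals raised 10951 and 1564, and without the filter on dim probes 30789 higher. Leaving out 1 animal gave 3571 to 4660 and 2681 to 3050. The thioredoxin list's 2 higher probes became 1 with the percentile over all probes or the authors' table, 5 with normexp, 4 with dim signals raised and 1 to 3 without 1 animal. Its 3 lower became 1 with quantile normalization or cyclic loess and 2 to 4 without 1 animal. Among differences that passed either as reported or under the alternative, the direction turned for PRDX1 (0.87), PRDX6 A_73_P204627 (1.53) and SOD1 A_73_P107601 (0.72) with normexp, for PRDX6 A_73_P204627 with dim signals raised (1.46), and for PRDX6 A_73_P043306 (-2.31) and CAT A_73_P253121 (-0.81) with quantile normalization; where dim signals were raised, the floor itself sets the sign, and otherwise the cause was not tested. Other changes of sign, as for PRDX1 with dim signals raised (0.60), TXNRD1 (0.10) and CAT A_73_P050911 (-0.15) with quantile normalization and PRDX6 A_73_P111311 with normexp (0.12), were of differences that passed in neither. With the replicate number as a block, a pairing the data do not bear out, the thioredoxin list had 1 higher probe (CCS A_73_111133 at 0.77, adjusted p = 0.0834), and SOD2 A_73_P100016 (-1.53, adjusted p = 0.0752) and GLRX3 (-1.06, adjusted p = 0.0581) lost their calls. Dim Ladakhi arrays limit TXN, SOD2 and CAT to bounds.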
